A study of Mus musculus with 24 samples.

Results

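The genes described here, of the Notch pathway, came from the RNA sequencing of mouse CD4+ T cells and are 7 of 22009 named genes in the table: the E3 ligase gene Dtx1 (Deltex1), the receptor genes Notch1 and Notch2, the transcription factor gene Rbpj, the target gene Hes1, the protease gene Adam10 and the inhibitor gene Numb. They were chosen by their names and selected on the RPKM of Dtx1, which was among the strongest early fallers after activation. The comparison of 4 h with resting cells is therefore a description here with no test for any of the 7, and for Dtx1 so is the comparison of 24 h with resting cells, which for all members uses the same resting libraries. Spleens of adult WT C57BL/6 mice were pooled and CD4+ cells purified from them by negative bead selection. The 24 libraries were 2 of resting cells, 18 of cultures (Th0, Th1 or Th2, each at 4, 8, 12, 16, 20 and 24 h), and 4 of cells given actinomycin. All cultures received 5 µg/ml plate-bound anti-CD3 and 1 µg/ml anti-CD28; Th0 had nothing further, Th1 had IL-12 (10 ng/ml) and anti-IL-4 (5 µg/ml), and Th2 had IL-4 (20 ng/ml) with anti-IFN-γ and anti-IL-12 (5 µg/ml each). Actinomycin, which stops transcription, was present for 0, 1, 2 or 4 h after 16 h of stimulation; the labels do not give their skewing condition. The 3 culture series came from 1 pool of cells and each combination was sequenced once, so p-values measure the spread between these libraries and not between animals. Resting libraries and cultures carry different tags in their labels, and a difference in preparation cannot be told apart from activation.

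Notch receptors sit at the cell surface and are cut in steps after binding a Delta or Jagged ligand on a neighbouring cell: ADAM10 removes the outer part, γ-secretase releases the inner part, and this enters the nucleus to join RBPJ and Mastermind-like coactivators on target genes such as Hes1. Deltex proteins are E3 ubiquitin ligases that bind the inner part of the receptor, and Deltex1 is itself a Notch target and is known in T cells for its part in anergy. Numb is an adaptor that antagonises Notch. In T cells the pathway is best known for lineage choice in the thymus, and in CD4+ cells for effects on activation and helper differentiation.

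The values were RPKM (reads scaled to transcript length and to the mapped reads of the library) per gene symbol, and each value appeared to be the sum over the gene's annotated transcripts, which the sources used here do not state. Where that holds, a few reads on a short transcript weigh more than the same reads on a long one. The depth recovered from the values was 17512385 to 33017133 mapped reads per library. T cell markers were high throughout, at a summed 2160 to 2180 RPKM at rest and 1440 to 1630 RPKM at 4 h. The purity was not complete: macrophage and monocyte markers, 10 genes, summed to 606 to 627 RPKM at rest, 48.7 to 83.3 at 4 h and 8.35 to 13.2 at 24 h, and B cell markers, also 10 genes, to 82.0 to 91.9, 44.3 to 64.8 and 11.2 to 20.4. Red blood cell markers, 6 genes, summed to 38700 to 42200 RPKM at rest and to 141 to 211 RPKM at 24 h, and the part of this fall in the other genes' RPKM was not tested. In bulk RNA, fewer cells of a type and less RNA per cell cannot be told apart.

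Dtx1 (ENSMUSG00000029603) lies on the minus strand of chromosome 5 of GRCm38, from 120680202 to 120711927, and its longest transcript has 10 exons and 4035 bases. Rbpj (ENSMUSG00000039191) lies on the plus strand of the same chromosome, from 53466152 to 53657362, with 12 annotated transcripts. The promoters of these genes, the one with the largest fall and the one with the largest rise of the 7, are shown from 250 bases before to 50 after the RefSeq start site, in lower case with the core of the motif bound by RBPJ (TGGGAA, or TTCCCA on the other strand) in capitals.
Dtx1, chr5:120711620-120711919, minus strand, GRCm38.p6: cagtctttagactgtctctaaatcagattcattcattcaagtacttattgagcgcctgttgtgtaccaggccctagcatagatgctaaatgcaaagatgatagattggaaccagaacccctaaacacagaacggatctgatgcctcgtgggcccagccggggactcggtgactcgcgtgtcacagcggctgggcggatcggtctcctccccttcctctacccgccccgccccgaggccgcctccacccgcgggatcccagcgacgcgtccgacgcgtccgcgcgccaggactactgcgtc
Rbpj, chr5:53590096-53590395, plus strand, GRCm38.p6: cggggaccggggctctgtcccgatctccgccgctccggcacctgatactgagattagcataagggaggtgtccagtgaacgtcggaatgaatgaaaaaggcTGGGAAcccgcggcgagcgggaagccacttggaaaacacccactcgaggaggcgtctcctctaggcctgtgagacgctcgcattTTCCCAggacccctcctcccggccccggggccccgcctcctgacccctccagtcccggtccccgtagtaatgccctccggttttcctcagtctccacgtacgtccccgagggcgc
Neither strand of the Dtx1 window held the core, and the Rbpj window held it at 2 places, starting 149 and 65 bases before the start site. The core occurred in 8397 of 32851 promoters of this length (25.6%), and in 2 of the 9 windows of the 6 members found in the table, both of them windows of Rbpj that overlap. Hes1 was not found in it. A match is a description of the letters and not of binding.

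Dtx1 was high in resting cells and low in every culture. It was at 99.0 and 102.7 RPKM in the resting libraries. At 4 h it was at 3.82 RPKM in Th0, 2.07 in Th1 and 2.38 in Th2, and the mean of 4 h was 36.6 times lower than that of resting cells. Over all 18 cultures the lowest value was 1.73 RPKM (Th1, 8 h) and the highest 3.85 RPKM (Th0, 20 h). The lowest resting value was 25.8 times the highest culture value. Other genes of the pathway, Ncor1 and Ccnd3 among them, also lay below both resting libraries in all 18 cultures. The share of all genes that lie wholly below or above both resting libraries was not counted. The log2 difference on the log2(RPKM + 0.5) scale was -5.00 at 4 h and -4.73 at 24 h. At 4 h this was the largest fall among the 10897 genes that passed a filter on the mean (1 RPKM or more), just ahead of Slc40a1, which encodes the iron exporter ferroportin, at -4.98, and Vcam1, an adhesion molecule gene, at -4.67; both are also expressed by splenic macrophages. Across all genes, 10.6% passed an adjusted p under 0.05 and a 2-fold change at 4 h, and 30.1% at 24 h.

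**Figure D1:**
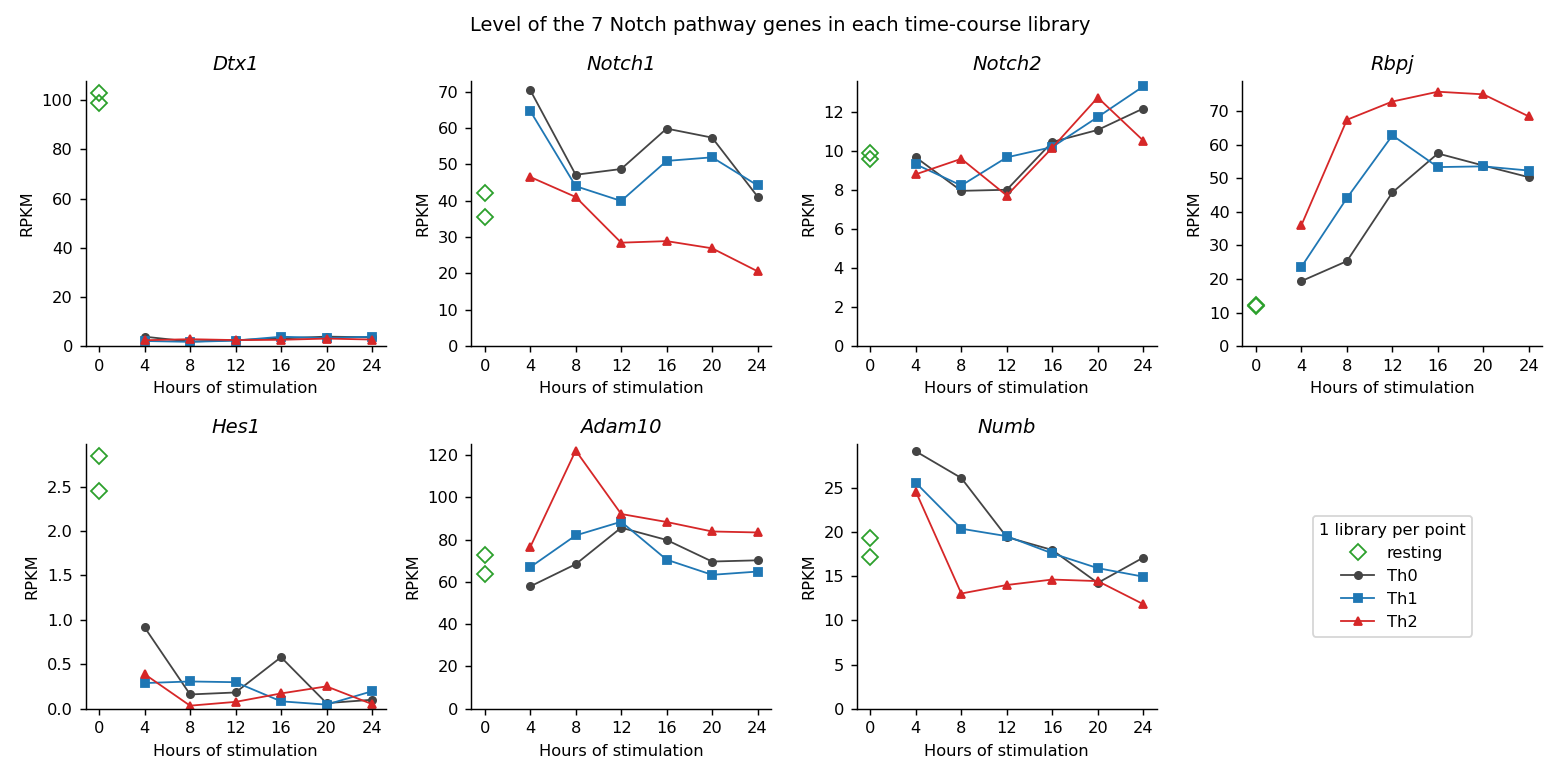
RPKM of each of the 7 genes (vertical axes, each starting at 0) against hours of stimulation (horizontal axes), with resting cells at 0 as open diamonds and 1 library per point. Dtx1 and Hes1 are highest at rest, Rbpj is higher in all 18 cultures than at rest, and Notch1 is lowest in Th2 at each of the 6 time points.

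Of the markers of other cells, those of macrophages and monocytes fell most at 4 h. The 10 macrophage and monocyte markers were all lower at 4 h than at rest, by a median of 11.9-fold and a range of 2.41 to 29.0-fold, and the 10 B cell markers by a median of 1.86-fold. C1qa and Marco were listed at 0 in some time-course libraries. Dendritic cell markers were lower at 4 h in 4 of 6 genes, by a median over the 6 of 1.05-fold. All 6 red blood cell markers were lower, by a median of 1.13-fold, and 0 of the 2 CD8 T cell markers were lower. Dtx1 stood at 2.05% to 3.79% of its resting mean at 4 h, and the summed macrophage and monocyte markers at 7.89% to 13.5%. At 24 h the order was the other way round: Dtx1 was at 2.64% to 3.78% and the markers at 1.35% to 2.14%. The part of the other cells in the resting level of Dtx1 was not tested.

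**Figure D2:**
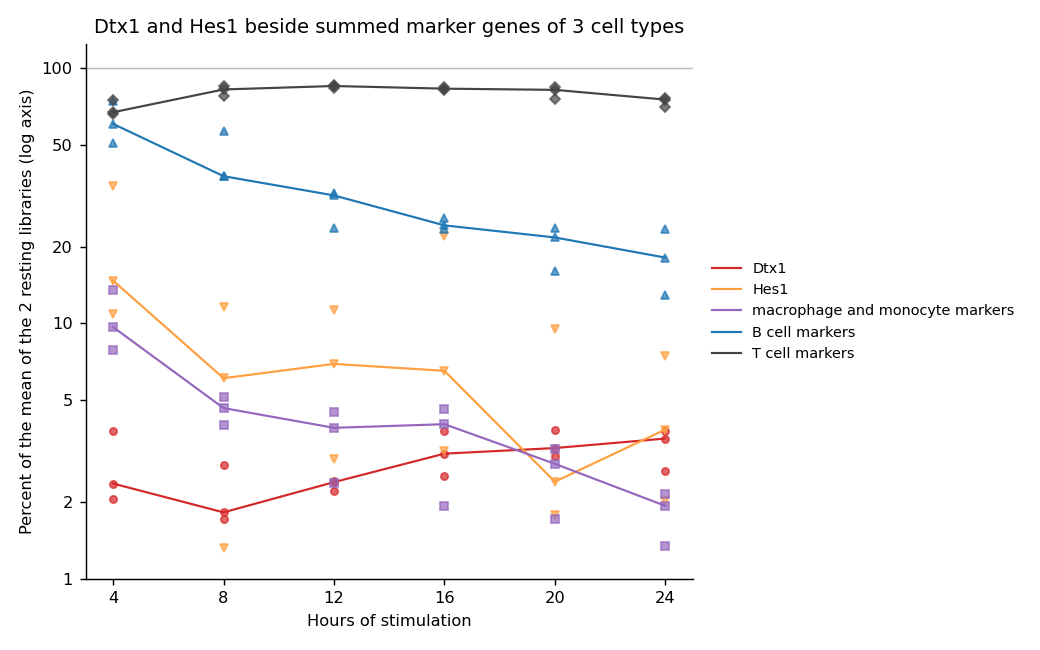
Level in each culture as percent of the mean of the 2 resting libraries (vertical, log axis) against hours of stimulation, for Dtx1, Hes1 and the summed markers of macrophages and monocytes, B cells and T cells; points are single cultures and lines join the median of the 3 cultures at a time. Macrophage and monocyte markers go on falling to 24 h, whereas Dtx1 is at 2.05% to 3.79% at 4 h and 2.64% to 3.78% at 24 h.

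Within the cultures, Dtx1 was slightly higher at 24 h than at 8 h. Its mean was 2.12 ± 0.593 RPKM at 8 h and 3.35 ± 0.606 RPKM at 24 h (SD, n = 3 cultures each). At 8 h the cultures were at 1.84 (Th0), 1.73 (Th1) and 2.81 RPKM (Th2), and at 24 h at 3.57, 3.81 and 2.66 RPKM, so the Th2 values ran against the other two series. With limma the log2 difference was 0.56 ± 0.20 (SE), with an adjusted p of 0.0295. The call was lost without the Th0 series (0.44, adjusted p = 0.179) or the Th1 series (0.37, adjusted p = 0.284). Between 8 and 24 h the summed macrophage and monocyte markers went from 24.6 to 31.8 RPKM to 8.35 to 13.2 RPKM. Between conditions, Dtx1 did not pass in any comparison, with log2 differences of -0.16 (Th2 against Th0, adjusted p = 0.416), -0.03 (Th2 against Th1, 0.917) and -0.13 (Th1 against Th0, 0.675).

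The genes with the pattern most like Dtx1 over the 20 time-course libraries, by Pearson's r of log2(RPKM + 0.5), were Atp2a3 (0.985), Mertk (0.980), Pilra (0.975), Podnl1 (0.968) and Slc16a5 (0.966). Atp2a3 encodes a calcium pump of the endoplasmic reticulum and Mertk a receptor tyrosine kinase of phagocytes. These values rest on the step from 2 resting libraries to 18 cultures. Over the 18 cultures alone, r with Dtx1 was 0.628 for Atp2a3, 0.406 for Mertk and 0.0870 for Slc16a5. Atp2a3 was at a mean of 100.9 RPKM at rest and 23.6 to 32.6 RPKM in the cultures, and Mertk at 8.71 and 0.0273 to 0.402 RPKM.

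The receptor gene Notch1 (ENSMUSG00000026923, chromosome 2, 26457903 to 26516663, minus strand) was lower in Th2 than in the other conditions. Resting cells were at 35.6 and 42.2 RPKM. At 4 h the cultures were at 70.4 (Th0), 64.7 (Th1) and 46.5 RPKM (Th2), all above both resting libraries. Later, from 8 to 24 h, Th0 was at 47.1, 48.7, 59.8, 57.3 and 41.1 RPKM, and Th1 at 44.0, 39.9, 50.9, 51.9 and 44.2 RPKM. Th2 was at 41.0, 28.4, 28.9, 26.9 and 20.6 RPKM at the same times. Th2 was thus the lowest condition at all 6 time points, and from 12 h on it was below both resting libraries while Th0 and Th1 were not. The summed macrophage and monocyte markers had means of 29.9 RPKM in Th0, 26.2 in Th1 and 25.6 in Th2 over the 6 times, and B cell markers 30.8, 23.9 and 31.5 RPKM. These means hide differences by time. At 4 h the macrophage and monocyte sums were 59.7 (Th0), 48.7 (Th1) and 83.3 RPKM (Th2). From 12 to 24 h they were 27.7, 28.5, 19.9 and 11.9 RPKM in Th0 and 24.05, 24.9, 17.4 and 13.2 RPKM in Th1. Th2 was lower at these times, at 14.6, 11.8, 10.6 and 8.355 RPKM. The part of these cells in the level of Notch1 was not tested.

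Over the 6 time points the log2 difference of Notch1 was -0.78 ± 0.11 (SE) for Th2 against Th0 (adjusted p = 0.000114) and -0.65 ± 0.11 for Th2 against Th1 (adjusted p = 0.000742), 1.71-fold and 1.57-fold lower. The ratio of Th2 to Th0 was closest to 1 at 8 h (0.870) and furthest at 20 h (0.469). Th1 against Th0 gave -0.13 (adjusted p = 0.579). At 24 h, the difference from resting cells was -0.21 ± 0.36 with an adjusted p of 0.626, and without the Th2 cultures it was 0.13. Between 8 and 24 h Notch1 gave -0.39 ± 0.16 with an adjusted p of 0.0461; without the Th2 cultures the difference was -0.09 and the adjusted p 0.499. Most like it were Gm15821 (r = 0.962), 4930431F12Rik (0.951) and Tap2 (0.944), a peptide transporter of antigen processing; Gm15821 is annotated within Tap2 on the opposite strand. Of the 50-base windows of the longest Notch1 transcript, 13.7% also occur in the antisense genes 0610009E02Rik and Gm13568, and a strand-specific count is not stated.

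Notch2 (ENSMUSG00000027878, chromosome 3, 98013527 to 98150361, plus strand) changed little. It was at 9.56 and 9.87 RPKM at rest and in the cultures lowest in Th2 at 12 h (7.70 RPKM) and highest in Th1 at 24 h (13.3 RPKM). The 8 h cultures were at 7.94, 8.22 and 9.58 RPKM (Th0, Th1, Th2) and the 24 h cultures at 12.2, 13.3 and 10.5 RPKM. It rose between 8 and 24 h by 0.46 ± 0.12 (SE) on the log2 scale (adjusted p = 0.00387), a call lost without Th0 (adjusted p = 0.0739) or Th1 (0.120). Against resting cells the difference at 24 h was 0.28 with an adjusted p of 0.0519, and without the Th2 cultures it was 0.37 with an adjusted p of 0.0129. No comparison of conditions passed for Notch2, with adjusted p of 0.969 for Th2 against Th0. Genes most like it were Gas8 (r = 0.888), Stk35 (0.883) and Rprd1b (0.881).

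Rbpj encodes the DNA-binding partner of the cut receptor and, without it, a platform for corepressors. It was at 12.1 and 12.4 RPKM at rest, below all 18 cultures. At 4 h it was at 19.4 (Th0), 23.6 (Th1) and 36.1 RPKM (Th2), and at 8 h at 25.3, 44.1 and 67.4 RPKM. From 12 to 24 h Th0 was at 45.8, 57.4, 53.8 and 50.3 RPKM, Th1 at 62.8, 53.3, 53.6 and 52.3 RPKM, and Th2 at 72.9, 75.8, 75.01 and 68.4 RPKM. Th2 was highest at all 6 time points, and at 8 h it was already above every Th0 value. At 24 h the mean was 57.0 ± 9.93 RPKM (SD, n = 3), 4.66 times the resting mean, with a log2 difference of 2.16 ± 0.33 (SE) and an adjusted p of 2.77e-05.

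Rbpj was higher in Th2 than in Th0 by 0.71 ± 0.11 (SE) on the log2 scale (adjusted p = 0.000306) and than in Th1 by 0.47 ± 0.11 (adjusted p = 0.0109). The ratio of Th2 to Th0 was largest at 8 h, at 2.66, and from 16 to 24 h it was between 1.32 and 1.39. The rise between 8 and 24 h was 0.41 ± 0.16 (adjusted p = 0.0389), and it was lost without Th0 (0.13, adjusted p = 0.448) or without Th1 (0.50, adjusted p = 0.112). Mrps6 (r = 0.984), Ado (0.979) and Cirh1a (0.978) were most like it; Mrps6 encodes a protein of the mitochondrial ribosome and Cirh1a one of ribosome assembly. Of the 50-base windows of the longest Rbpj transcript, 24.3% also occur in transcripts of other genes, the Rbpj pseudogene Rbpj-ps3 among them, and how the authors' counting split such reads is not stated.

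**Figure D3:**
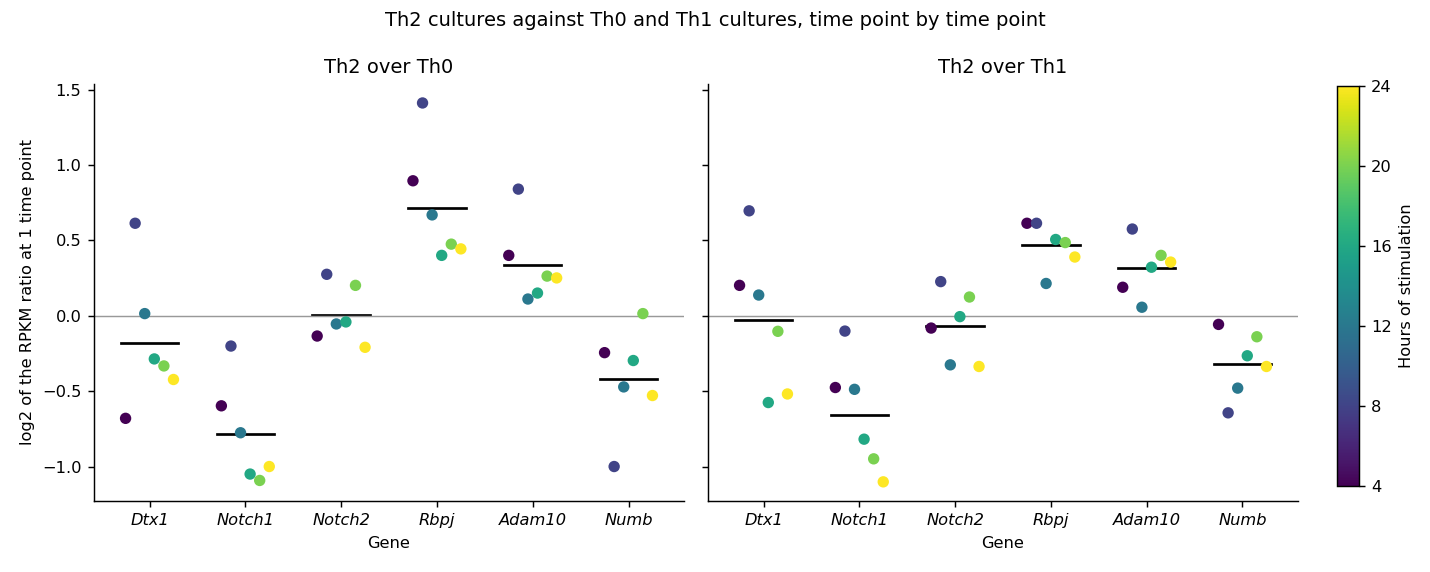
log2 of the RPKM ratio of Th2 to Th0 (left) and Th2 to Th1 (right) at each of the 6 time points (points, coloured by hours), for the 6 genes above the filter on low values, with their mean as a bar. All 6 points lie below 0 for Notch1 and above 0 for Rbpj and Adam10 in both panels.

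Hes1 (ENSMUSG00000022528, chromosome 16, 30064384 to 30067796, plus strand), a repressor gene and the classical Notch target, was low. It was at 2.45 and 2.84 RPKM at rest, at most 71 and 98 reads. At 4 h it was at 0.916 (Th0), 0.289 (Th1) and 0.389 RPKM (Th2), at most 33, 9 and 11 reads. Over all 18 cultures it was between 0.0350 and 0.916 RPKM with a median of 0.178, so each was below both resting libraries. The values allow at most 1 to 33 reads on its longest transcript in a culture, so an order of the conditions was not detectable at this depth. Its mean over the time course was under 1 RPKM, and it was not tested. The summed macrophage and monocyte markers were also lower in every culture than at rest, and their part in the Hes1 values was not tested.

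Adam10 (ENSMUSG00000054693, chromosome 9, 70678997 to 70780229, plus strand), the protease of the first cut after ligand binding, was highest in Th2. It was at 72.9 and 63.6 RPKM at rest. Th0 was at 57.9, 68.4, 85.6, 79.8, 69.6 and 70.2 RPKM from 4 to 24 h, and Th1 at 67.0, 82.0, 88.5, 70.5, 63.4 and 64.9 RPKM. Th2 was at 76.5, 122.1, 92.1, 88.3, 83.8 and 83.4 RPKM, above both at all 6 times and furthest at 8 h. The log2 difference was 0.33 ± 0.09 (SE) for Th2 against Th0 (adjusted p = 0.0102) and 0.32 ± 0.09 for Th2 against Th1 (adjusted p = 0.0226). Over 12 to 24 h alone the first was 0.19 with an adjusted p of 0.0888, and the second was lost without 16 h (0.074), 20 h (0.0889) or 24 h (0.055). Against resting cells, 24 h gave 0.09 with an adjusted p of 0.706, and from 8 to 24 h the difference was -0.28 with an adjusted p of 0.064, which without the Th0 cultures was -0.44 with an adjusted p of 0.0255. Camk2d (r = 0.903), Cd160 (0.852) and Stap1 (0.842) were most like it.

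Numb (ENSMUSG00000021224, chromosome 12, 83794034 to 83921934, minus strand) was highest at 4 h and lower afterwards. It was at 19.3 and 17.2 RPKM at rest, and at 4 h at 29.1 (Th0), 25.5 (Th1) and 24.6 RPKM (Th2), above both. Later, from 8 to 24 h, Th0 was at 26.1, 19.4, 17.96, 14.2 and 17.1 RPKM, and Th1 at 20.4, 19.5, 17.6, 15.9 and 14.95 RPKM. Th2 was at 13.0, 14.0, 14.6, 14.4 and 11.8 RPKM, so it had reached its lower range by 8 h and was the lowest of the conditions at 5 of 6 time points. Numb was lower in Th2 than in Th0 by a log2 difference of -0.41 ± 0.10 (SE, adjusted p = 0.0066), whereas Th2 against Th1 gave -0.31 with an adjusted p of 0.0502. Without 4 h that comparison gave -0.36 with an adjusted p of 0.0498. Between 8 and 24 h it gave -0.39 ± 0.14 (adjusted p = 0.0286), lost without Th0 (adjusted p = 0.165) or Th1 (0.204). At 24 h against rest it gave -0.32 with an adjusted p of 0.21. Cdc42se2 (r = 0.947), Klhl24 (0.941) and Zbtb11 (0.941) were most like it.

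Counted over the members, 1 of the 5 tested at 24 h against resting cells passed both criteria, against 30.1% of all genes, and at an adjusted p alone it was also 1, against 65.2%. From 8 to 24 h, 5 of 6 tested members passed at an adjusted p alone, against 52.0% of all genes, and 0 reached 2-fold, against 11.2%. For Th2 against Th0, 4 of 6 passed at an adjusted p alone, against 29.6% of all genes, and for Th2 against Th1 it was 3 of 6 against 12.2%. With both criteria it was 0 of 6 in each, against 2.01% and 1.96% of all genes. With an unadjusted p under 0.05 and 2-fold it was also 0 of 6 in each, and the share of all genes there was not counted. For Th1 against Th0, limma called 0 of 6 members at an adjusted p under 0.05, against 2.27% of all genes, and 0.494% of all genes passed both criteria. At an unadjusted p under 0.05 it was 1 of 6 members, against 16.4% of all genes.

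The other genes of the pathway were a list of 69, of which 68 were in the table and 47 passed the filter of a mean of 1 RPKM. The list held target genes beside components, and Il2ra, Myc, Gata3 and Ccnd3 were on it as target genes. The other receptors and the ligands all lay under it. Notch3 was at most 0.143 RPKM in the cultures, and Notch4 at most 1.15 RPKM. Among the ligands, Jag2 was at a mean of 1.48 RPKM at rest and 0.179 to 1.32 RPKM in the cultures, while Dll1, Dll3, Dll4 and Jag1 were each at most 0.699 RPKM in the cultures. Of the other Hes and Hey genes, Hes5 reached 1.501 RPKM, in Th2 at 20 h, and Hey1 was at 0.915 RPKM at rest and at most 0.529 RPKM in the cultures, with Hey2 at most 0.0475 and Heyl at most 0.0198 RPKM. Nrarp, a feedback inhibitor induced by Notch, was at a mean of 1.72 RPKM at rest and 0.412 to 1.23 RPKM in the cultures.

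At 4 h against resting cells, 1 of the 47 rose and 2 fell past both criteria with limma, against 10.6% of all genes in both directions. Il2ra, the α chain of the IL-2 receptor, rose by 1.98 on the log2 scale (adjusted p = 0.000104). Nedd4, an E3 ligase gene, fell by 2.11 (adjusted p = 3.11e-07), and the corepressor gene Tle3 fell by 1.16 (adjusted p = 0.000903). At an adjusted p alone it was 16 of 47, against 31.7% of all genes. The median log2 difference over the 47 was 0.03, and over all genes tested -0.04.

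At 24 h, 3 rose and 7 fell past both criteria, against 30.1% of all genes in both directions, with a median of -0.23 over the 47 and -0.04 over all genes tested. Those that rose were Il2ra, by 3.63 on the log2 scale, and the growth regulator Myc, by 2.58, both listed as target genes, and Furin. Furin, the protease that processes the receptor on its way to the surface, rose by 1.30 with an adjusted p of 0.0337 (limma). The Furin call was lost without resting replicate 1 (adjusted p = 0.139), without resting replicate 2 (0.0867) or without the Th0 cultures (0.0688). Of those that fell, Nedd4 fell by 2.15, Aak1, a kinase gene of endocytosis, by 1.62, the acetyltransferase gene Kat2b by 1.45 and the corepressor gene Tle4 by 1.18. Kat2b was lost without either resting replicate (adjusted p = 0.0994 and 0.0741) or the Th1 cultures (0.105). The coactivator genes Maml1 and Ep300 and the ligand endocytosis gene Mib2 also fell. At an adjusted p alone it was 29 of the 47, against 65.2% of all genes. Of the 8 coactivator genes tested, 3 fell and 0 rose past both criteria, against 30.1% of all genes in both directions. At an adjusted p alone 5 of the 8 fell and 1 rose, against 65.2% of all genes in both directions. Of the 6 tested genes of receptor cleavage other than Adam10, 0 passed both criteria, against 30.1% of all genes. At an adjusted p alone 2 were lower and 0 higher, against 65.2% of all genes in both directions.

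Among the other Deltex genes, Dtx3l, an E3 ligase gene whose product works with PARP9, differed between conditions. It was at a mean of 34.1 ± 2.41 RPKM at rest (SD, n = 2), and over the 6 times at means of 60.6 RPKM in Th0, 48.0 in Th1 and 17.3 in Th2. Its log2 difference was -1.80 for Th2 against Th0 (adjusted p = 2.26e-08), -1.45 for Th2 against Th1 (2.51e-07) and -1.19 from 8 to 24 h (2.11e-05). Dtx2 was at 9.41 RPKM at rest and 8.79 to 15.01 RPKM in the cultures, and Dtx3 at 32.4 and 14.5 to 24.9 RPKM. Dtx4 was under the filter, at 1.66 RPKM at rest and at most 1.12 RPKM in the cultures. Of the 47 other pathway genes, 14 passed at an adjusted p alone for Th2 against Th0, against 29.6% of all genes. It was 7 for Th2 against Th1, against 12.2%, and 2 for Th1 against Th0, against 2.27%. With both criteria 0 rose and 2 fell for Th2 against Th0, against 2.01% of all genes. For Th2 against Th1, 1 rose and 2 fell, against 1.96%, and for Th1 against Th0, 1 rose and 0 fell, against 0.494%. Kat2b was also lower in Th2 than in Th0 (-1.20, adjusted p = 5.96e-05). Furin was higher in Th1 than in Th0 (1.05, adjusted p = 8.4e-05) and lower in Th2 than in Th1 (-1.10, adjusted p = 7.58e-06), and Gata3, the master regulator of Th2 cells and a known Notch target, was higher in Th2 than in Th1 (1.60, adjusted p = 1.24e-06).

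After actinomycin, with 1 library per time and no test, the members differed in how much of their level was left. Notch2 was at 9.15, 8.16, 5.05 and 4.87 RPKM at 0, 1, 2 and 4 h, which left 53.3% at 4 h. Rbpj was at 61.7, 54.7, 40.02 and 39.96 RPKM (64.7%), Adam10 at 74.5, 73.5, 55.2 and 51.1 RPKM (68.7%) and Notch1 at 22.6, 23.1, 12.7 and 16.7 RPKM (73.8%). Numb was at 12.5, 13.2, 15.03 and 14.4 RPKM (115%), and Dtx1 at 2.40, 3.47, 2.48 and 4.61 RPKM (192%). Hes1 was at 0.0529, 0.0648, 0 and 0.0755 RPKM, which is at most 2 reads in a library.

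RPKM are relative to the RNA still present. The median log2 ratio of 4 h to 0 h over the 10571 genes whose mean in these libraries reached 1 RPKM was -0.00122, and 5.43% of them were at least 2-fold lower at 4 h, which 0 of the 6 members above the filter were. The log2 ratio was -0.85 for Notch2, -0.62 for Rbpj, -0.54 for Adam10, -0.43 for Notch1, 0.20 for Numb and 0.82 for Dtx1. Of all genes, 8.46% had a lower ratio than Notch2 and 93.3% a lower ratio than Dtx1. These libraries did not match the 16 h cultures in most members. Notch1 at 0 h was at 22.6 RPKM, below the 28.9 to 59.8 RPKM of those cultures. Dtx1 at 0 h was at 2.40 RPKM, below their 2.56 to 3.81 RPKM. Notch2 (9.15 against 10.1 to 10.4 RPKM), Numb (12.5 against 14.6 to 17.96) and Hes1 (0.0529 against 0.0840 to 0.58) were lower too. Rbpj and Adam10 at 0 h lay within the range of the 16 h cultures. The macrophage and monocyte markers summed to 55.0 to 78.5 RPKM in the 4 actinomycin libraries. In the 16 h cultures they summed to 28.5 (Th0), 24.9 (Th1) and 11.8 RPKM (Th2). The part of these cells in the Dtx1 values after actinomycin was not tested.

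**Figure D4:**
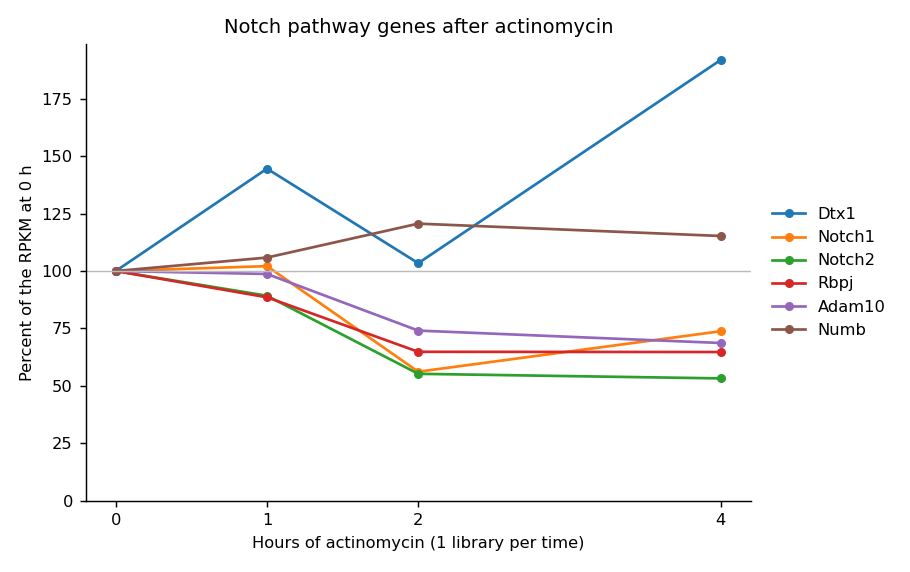
RPKM as percent of the value at 0 h (vertical, from 0) against hours of actinomycin, 1 library per point, for the 6 genes above the filter on low values. Notch2, Rbpj, Adam10 and Notch1 end between 53.3% and 73.8% at 4 h, Numb at 115% and Dtx1 at 192%.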

How the data were processed

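The authors deposited 1 table of RPKM values per gene symbol for the 24 libraries, with 22010 entries, of which 1 had no name and a sum of 0. The submitters' processing notes name BWA and GRCm38 with no role; the version and annotation are not given in the sources used here. The values of genes with a single transcript were mostly whole multiples of 1 read (70.2% to 74.2% of them, within 0.02), which gave the mapped reads per library. Each member has more than 1 annotated transcript. For Hes1, 13 of its 23 values above 0 were such multiples on its longest transcript, 12 of them even. No counting intervals are given, and numbers of reads are the most the value allows on the longest GENCODE vM21 transcript.

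Differences were computed on log2(RPKM + 0.5), a scale on which changes of low genes come out too small, after a filter on the mean (1 RPKM or more), with limma 3.58.1 in R 4.3.3 (intensity trend, Benjamini-Hochberg adjustment over all genes tested). A gene was called past the threshold at 2-fold or more with an adjusted p below 0.05, and calls at an adjusted p alone are named as such. Time points were compared with rest over the 20 time-course libraries, with time as a factor and no term for the series. The comparison of 24 h with 8 h was over the 18 cultures, with time and culture as factors. Conditions were compared with each other over the same 18 libraries, with time as a factor. The 6 time points of a condition served as its replicates. In the paper, cells were taken out of the cultures at each time, so they may not be independent. A difference between the culture series cannot be told apart from the skewing condition. The tests were tried on simulated data. Alternatives were a pseudocount of 0.1 or 1, the filter removed or raised to 5 RPKM, 3 other scalings, no trend, fewer libraries, and leaving out each resting library, series or time point. Promoter sequences came from RefSeq (GRCm38.p6).

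The members and lists were chosen with earlier results of these data known. Named are all members, the receptors, ligands, Deltex and Hes or Hey genes, up to 4 rises and 4 falls past the threshold per comparison with values and any others by name, and the genes most like each member. Python 3.11.15, numpy 2.4.6 and pandas 2.3.3 were used.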

Additional observations from a re-analysis of the deposited data

How the results depend on the processing

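Of 426 log2 differences of tested members under an alternative, 371 kept their sign and their side of an adjusted p of 0.05, which alone decides the calls of members here. Requiring a mean of at least 5 RPKM gave 646 genes past both criteria at 4 h and 764 from 8 to 24 h, where fewer genes were tested. Against rest at 24 h, Notch2 passed under that filter (0.28), median-of-ratios scaling (0.42) and quantile normalization (0.55); Adam10 was at -0.0049 with upper-quartile scaling and -0.12 with quantile normalization. From 8 to 24 h, calls were lost with no filter (Dtx1 0.56, Notch1 -0.39, Rbpj 0.41), median-of-ratios scaling (Notch1 -0.36, Numb -0.36), no trend (Notch1 -0.39), quantile normalization (Rbpj 0.37) and only the 2 time points (Dtx1 0.56, Notch1 -0.39, Notch2 0.46, Rbpj 0.41, Numb -0.39), and Adam10 passed with upper-quartile scaling (-0.30) and quantile normalization (-0.39). For Th2 against Th0, Notch2 was at -0.0023 with upper-quartile scaling and -0.024 over 12 to 24 h, and Adam10 was lost at 0.33 with only the 2 conditions and 0.19 over 12 to 24 h. For Th2 against Th1, Dtx1 was at 0.029 with quantile normalization, and Numb passed with a pseudocount of 0.1 (-0.32), a mean of at least 5 RPKM (-0.31) and only the 2 conditions (-0.31). For Th1 against Th0 over 12 to 24 h, Dtx1 was at 0.0090 and Adam10 at -0.095. Other than where the construction shows it, the cause was not tested.

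Leaving out 1 resting library, series or time point gave these log2 ranges. Against rest at 24 h: Notch1 -0.41 to 0.13, Notch2 0.21 to 0.37, Adam10 -0.012 to 0.19. From 8 to 24 h: Dtx1 0.37 to 0.88, Notch1 -0.59 to -0.094, Notch2 0.36 to 0.62, Rbpj 0.13 to 0.61, Adam10 -0.44 to -0.15, Numb -0.52 to -0.28. Th2 against Th0: Notch2 -0.045 to 0.046. Th2 against Th1: Dtx1 -0.15 to 0.062, Adam10 0.27 to 0.37, Numb -0.36 to -0.25. Th1 against Th0: Adam10 -0.034 to 0.053. The rise of Rbpj at 24 h and the calls of Notch1 and Rbpj for Th2 against Th0 and Th1 passed an adjusted p under 0.05 in every alternative run. So did the call of Numb for Th2 against Th0. The split of all calls into rises and falls at 24 h was 1389 and 1891, and 1777 and 1612 with quantile normalization. Depth limits Hes1, with at most 33 reads in a culture. The labels give the groups no shared replicate numbers. Time point was a factor of every fit, and the series was a factor only of the fits over the 18 cultures. In the fits against rest, differences between the series were part of the error.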
